A study of Hakea prostrata with 26 samples.

Results

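Genes that stood higher in white roots than in cluster roots of Hakea prostrata, and varied little within the cluster roots and over the wild leaf stages, numbered 18 of 25047. The genes are assembled Trinity genes, known by an ID only, because the deposited table pairs no ID with a name. Their function, sequence and place in the genome are therefore not given, and genes beyond those named by ID are called by their rank. The genes were chosen by measured values, on the scale log2(CPM + 1), where CPM is the estimated count of a gene per 1000000 scaled counts of its library. The lowest white root library had to reach 3 and to lie at least 1 above the highest cluster root library. The cluster root libraries, and the means of the wild leaf stages, each had to span less than 1.5. The distance from the highest cluster root library to the lowest white root library is called the gap, and it ranks the genes from 1 to 18. Since the gap chose the genes, it is described here without a test.

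The 26 libraries came from plants in hydroponics and in the field, of 1 species and with no stated genotype. Hydroponic plants gave 5 cluster root libraries (days 0, 1, 4, 7 and 12), 3 white root libraries (1, 10 and 50 uM phosphate) and 3 mature leaf libraries (the same phosphate levels), with 1 library per condition. Naturally occurring plants gave 15 wild leaf libraries, 3 each at stages 1, 2, 3, 4 and M. The labels state that 5 field plants were harvested and that the hydroponic treatments had no replicates, and the 3 libraries sequenced per wild leaf stage were those of best RNA quality. They give no phosphate supply for the cluster roots, no age for the white roots and no meaning for stage M, so root type cannot be told apart from differences in these. The tissue labels were not checked against marker genes, because the IDs carry no names. Estimated counts summed to between 8163081 and 11508234 per root library, between 17130939 and 20283815 per mature leaf library and between 1517487 and 11418655 per wild leaf library. The white root libraries at 1 and 10 uM phosphate had the same rounded total, 11508234, although 90.9% of their transcript values, and the counts of all 18 genes, differed.

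Many Proteaceae form cluster roots, dense groups of short-lived rootlets, when phosphate is scarce. The rootlets emerge, mature within days, release carboxylates and phosphatases that free soil phosphate, and then age, and a generous phosphate supply suppresses their formation. Genes set apart by root type are of interest because both root types belong to one root system and can differ in their transport, wall and secretory programmes. In bulk tissue, fewer cells of a type and less RNA per cell cannot be told apart.

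A gap of this size was rare. Of 4875 genes that met the other conditions, 18 had it (0.369%), and 137 (2.81%) had any gap above 0. The median gap of the 4875 genes was -0.58, which means that the white and cluster root ranges of most genes overlapped. In the other direction, 268 of these genes (5.50%) had every cluster root library above every white root library. With the roles of the root types exchanged, the same rule found 10 genes among 5627. Without the conditions on spans, 57 genes had the gap and the white root minimum; the stage span alone left out 19 of these, the cluster root span alone 5 and both together 15.

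The 18 genes differed widely in how far apart the root types stood. Gaps ran from 1.01 to 3.89 with a median of 1.99, so that the lowest white root library was 2.13 to 28.4 times as high in CPM as the highest cluster root library. In 6 genes this ratio was at least 8. Mean white root levels ran from 10.01 to 1875 CPM (median 24.0), and mean cluster root levels from 0.210 to 92.2 CPM (median 2.34). The smallest estimated count behind any white root value was 118. In the map of all libraries, the white root columns are brighter than the cluster root columns in each of the 18 rows, while the leaf columns are dark in most rows and bright in a few.

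**Figure D1:**
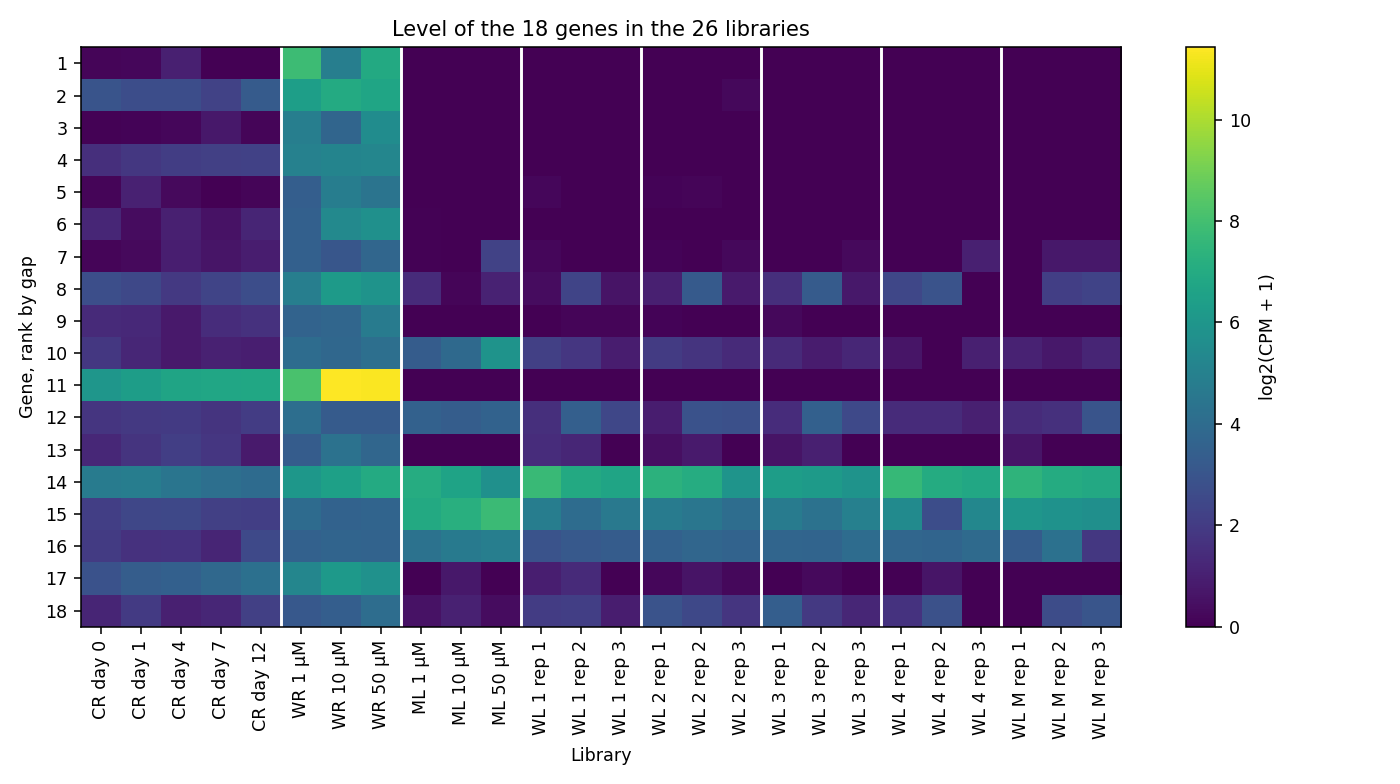
Level of each of the 18 genes (rows, by rank of the gap) in each of the 26 libraries (columns), as log2(CPM + 1). CR is cluster root, WR white root, ML hydroponic mature leaf and WL wild leaf with its stage and replicate. Ranks 1 to 6 are near 0 in the leaf libraries, and ranks 14 and 15 are higher in leaf than in cluster root.

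TRINITY_DN10282_c0_g1 had the largest gap, 3.89. It stood at 230 CPM in white root at 1 uM phosphate, 29.0 at 10 uM and 122 at 50 uM. In cluster roots it stood at 0.125, 0.148, 1.02, 0 and 0 CPM on days 0, 1, 4, 7 and 12. The white root libraries all lay far above the cluster root libraries, and they varied 7.93-fold among themselves. Its 17 estimated counts in cluster roots included 13 on day 4 (exact Poisson 95% interval 6.92 to 22.2), against 462 counts (421 to 506) in its lowest white root library. These intervals cover counting error only. It had no count in any of the 18 leaf libraries, which allows up to 0.0241 CPM (3 counts over these libraries), so its white root level pooled over the 3 libraries, 131 CPM, was at least 5450-fold higher than that of the leaves.

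TRINITY_DN8708_c0_g1 followed with a gap of 3.12. Its white root values were 83.02, 127 and 104 CPM at 1, 10 and 50 uM phosphate. Its cluster root values were 6.93, 5.41, 5.42, 3.77 and 8.67 CPM on days 0, 1, 4, 7 and 12. Its white root values differed 1.53-fold, less than those of rank 1, while its cluster root values spanned 1.02 on the log2(CPM + 1) scale, close to the 1.01 of rank 1. It had 1 estimated count in the leaves.

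The limit of the list fell within a continuous run of genes. TRINITY_DN12105_c1_g1, the last gene inside, had a gap of 1.0050 and white root values of 7.88, 9.66 and 16.1 CPM against 1.02 to 3.42 CPM in cluster roots. TRINITY_DN12062_c0_g1, the first gene outside, had a gap of 0.990 and white root values of 42.2, 47.8 and 44.4 CPM against 9.81 to 20.8 CPM in cluster roots.

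The gene of rank 11, TRINITY_DN1280_c0_g1, was the most abundant in white roots and was singled out after its values were seen. It stood at 286 CPM at 1 uM phosphate and at 2746 and 2594 CPM at 10 and 50 uM. In cluster roots it stood at 63.1, 80.6, 101, 106 and 111 CPM on days 0, 1, 4, 7 and 12. The order of the cluster root values followed the days, within a range of 0.80 on the log2(CPM + 1) scale that the rule had capped. The 18 genes together held 0.141% of the counts of the white root library at 1 uM, 0.464% at 10 uM and 0.505% at 50 uM, against 0.0188 to 0.0221% in cluster roots. Without this gene the shares were 0.0963, 0.0830 and 0.111% in white roots and 0.00726 to 0.0101% in cluster roots. The steep difference between phosphate levels in the summed share was thus that of 1 gene. The rule chose each gene for a higher white root level, so the difference between root types in these shares follows from that choice, with or without this gene.

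The isoforms of TRINITY_DN1280_c0_g1 did not follow the same pattern. Isoform i11 had 0 estimated counts in white root at 1 uM phosphate, 38276 at 10 uM and 35948 at 50 uM, and 7 counts over the 5 cluster root libraries. With the split of reads between the isoforms taken as given, a count of 0 at 1 uM allows up to 0.168 CPM (3 counts in that library). On that condition only, the level of i11 was at least 14300-fold higher at 10 uM and at least 14900-fold higher at 50 uM. Isoform i22 had 5118, 5514 and 1347 counts in white roots at 1, 10 and 50 uM and between 968 and 1321 in cluster roots. Isoform i22 thus made up 100% of the gene's counts at 1 uM, 12.6% at 10 uM and 3.61% at 50 uM. Neither isoform reached the gap by itself, because i11 was at 0 at 1 uM and i22 at 50 uM was near its cluster root level. With 1 library per phosphate level, the difference between libraries and the effect of phosphate cannot be told apart, and isoforms of 1 gene share reads, which makes their split uncertain.

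**Figure D2:**
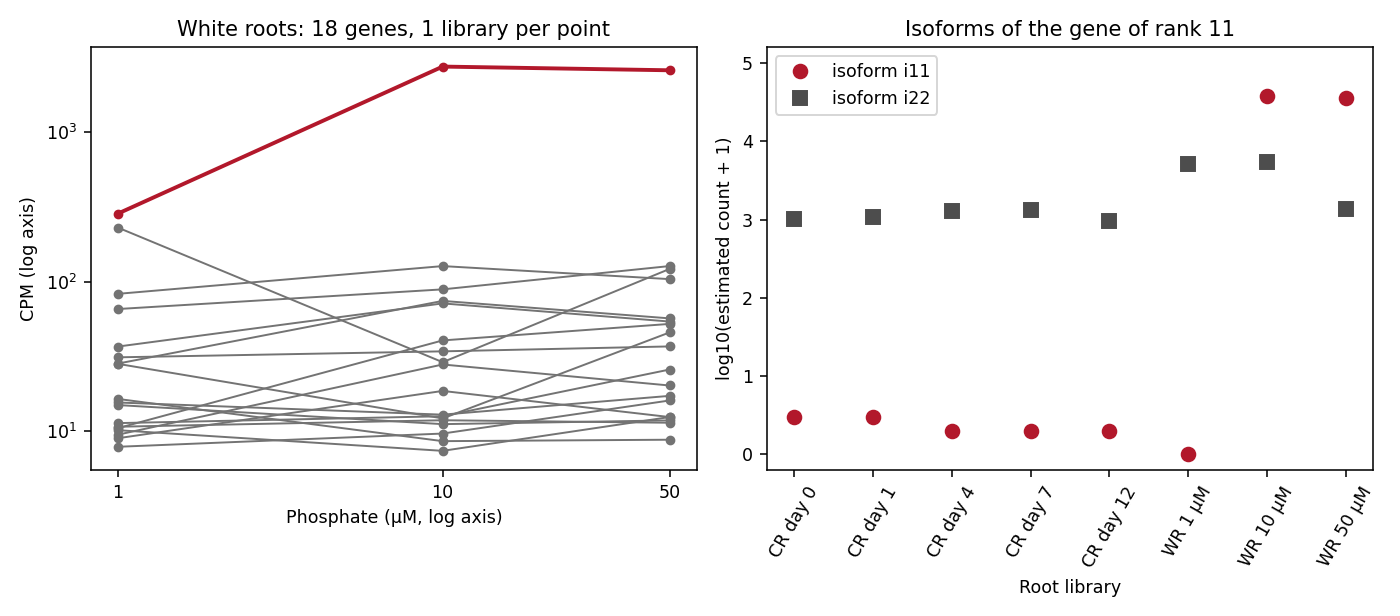
Left, CPM of the 18 genes in the 3 white root libraries against phosphate supply (both axes logarithmic, 1 library per point), with the gene of rank 11 in red. Right, log10(estimated count + 1) of its isoforms in the 8 root libraries. The red gene is at 286 CPM at 1 uM and at 2746 and 2594 CPM in the other libraries, and isoform i11 (circles) is at 0 at 1 uM.

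Among the white roots, the place of the lowest value depended on the scaling. It fell at 1 uM in 12 genes, at 10 uM in 6 and at 50 uM in none of the 18. Of the 4875 genes that met the other conditions, 2305 (47.3%) had their lowest value at 1 uM, 1474 at 10 uM and 1096 at 50 uM. With library totals in place of TMM, an alternative chosen after seeing the data, the count at 1 uM was 9 of 18. White root values at 50 uM were at least 2-fold those at 1 uM in 6 of the 18 genes (1.05% of the 4875 genes) and at least 2-fold lower in 0 (1.15%). A higher value at each step of phosphate was seen in 5 genes and a lower value at each step in 0. Of the 4875 genes, 746 (15.3%) were higher at each step and 496 were lower at each step. The highest and lowest white root values differed 1.10-fold to 9.60-fold with a median of 1.99-fold, against a median of 1.29-fold in the 4875 genes. The white root libraries chose the genes, so these are descriptions without a test, and the library at 1 uM set the gap in 12 of 18 genes. The rule without that library found 62 genes.

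The cluster root levels of the 18 genes had no common course over the days. The highest value fell on day 12 in 8 genes, on day 4 in 4, on day 0 in 3, on day 1 in 2 and on day 7 in 1. Day 12 was likewise the most frequent day among the 4875 genes (43.5%), with day 0 next (31.1%). The span over days, which the rule capped, was 0.28 to 1.32 on the log2(CPM + 1) scale in the 18 genes.

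Leaf levels split the 18 genes into groups. In 10 genes the mean of the mature leaves and the mean of the wild leaves were both under 1 CPM, where 0.738% of the 4875 genes were that low in leaf. These 10 genes included ranks 1 to 6, and their median gap was 2.34. In 5 genes both leaf means were at least 1 CPM, with a median gap of 1.21. The gaps of these groups overlapped. In the other 3 genes, 1 of the leaf means was under 1 CPM. The rule used the stage means of wild leaves only through their span, and a gene near 0 in every leaf meets that condition, as do the low genes among the 4875. Of the 10 genes found with the roles of the root types exchanged, 7 were likewise under 1 CPM in both kinds of leaf. Without the span conditions, 57 genes had the gap and the white root minimum. Of these, 14 (24.6%) were under 1 CPM in both kinds of leaf and 33 were at least 1 CPM in both.

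The 10 genes that were low in leaf had leaf means of at most 0.224 CPM in mature leaves and 0.423 CPM in wild leaves. Each had at most 42 estimated counts over the 18 leaf libraries together, 7 of them had at most 3, and 4 had none. White root means in this group ran from 13.4 to 1875 CPM, with a median of 34.3, and cluster root means from 0.210 to 92.2 CPM. TRINITY_DN1280_c0_g1 was among the 4 genes without a leaf count, so its pooled white root level, 1788 CPM, was at least 74200-fold higher than that of the leaves. That ratio holds for this gene as assembled only. A second assembled gene that shares sequence with it, described below, stood at 56.5 to 132 CPM in the leaf libraries.

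Set beside the root ranges as means of log2(CPM + 1), the leaf levels of most genes were at or below the cluster roots. The mature leaf mean lay under the lowest cluster root library in 10 genes, within the cluster root range in 3, between the root types in 0, within the white root range in 2 and above the highest white root library in 3. The wild leaf mean lay under the lowest cluster root library in 9 genes, within the cluster root range in 5, between the root types in 2, within the white root range in 1 and above it in 1. In CPM, the mature leaf mean was above the white root mean in 4 of 18 genes, against 51.1% of the 4875 genes. The plot of root levels and leaf means shows no leaf mean above the cluster roots in ranks 1 to 9.

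**Figure D3:**
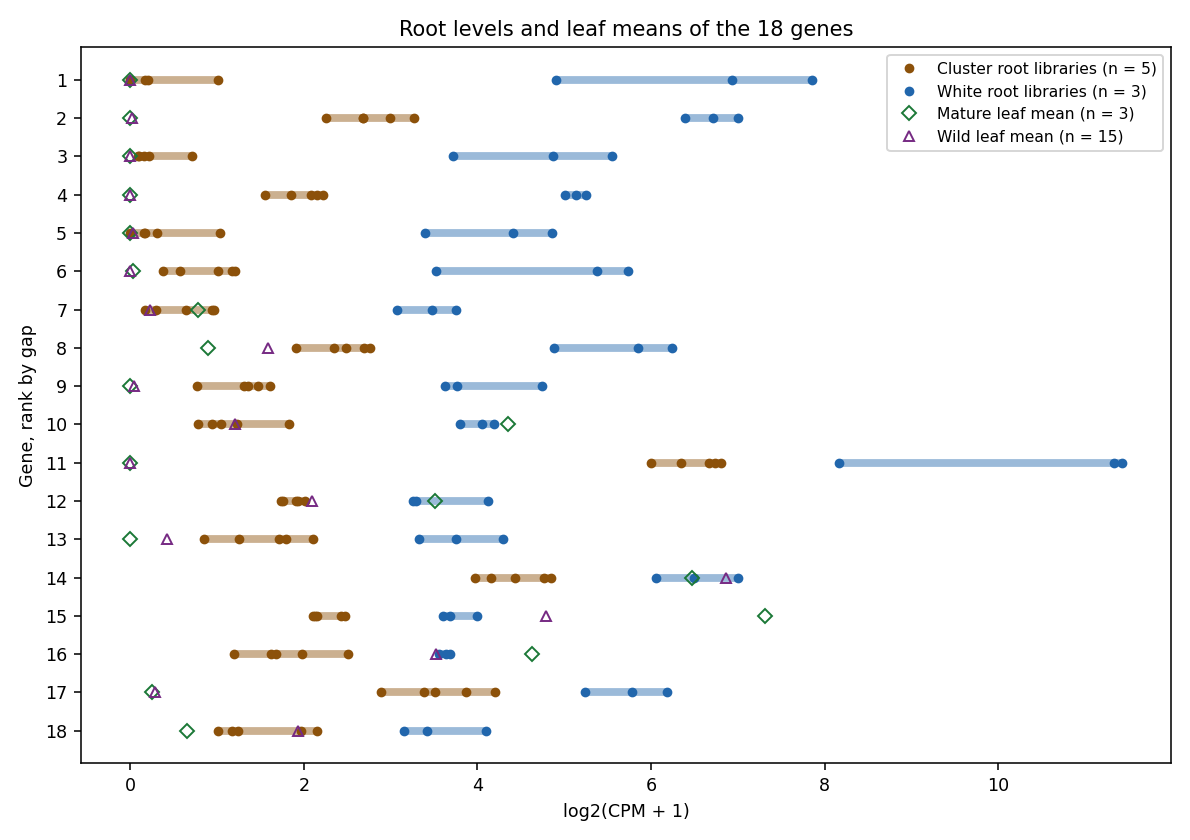
For each of the 18 genes (by rank), the cluster root libraries (brown) and white root libraries (blue) with their ranges, and the mean of the 3 mature leaf and of the 15 wild leaf libraries, on the log2(CPM + 1) scale. Mature leaf means lie above the highest white root library in ranks 10, 15 and 16.

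The gene with the highest wild leaf level was TRINITY_DN233_c0_g1, of rank 14. It stood at 124 ± 47.1 CPM (SD, n = 15) over the wild leaves, with a lowest value of 56.7, a median of 122 and a highest value of 211. Its white root values were 65.7, 88.9 and 127 CPM at 1, 10 and 50 uM phosphate, and its cluster root values ran from 14.7 on day 12 to 27.8 on day 1. Wild leaves and white roots overlapped, and every library of either lay above every cluster root library. In this gene the cluster roots were therefore the low tissue. In mature leaves it stood at 135, 98.0 and 51.7 CPM at 1, 10 and 50 uM.

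Of the 18 genes, 7 had enough counts in leaf to be tested there, and the 11 others were left out by the filter on low counts. The mature leaf libraries had no part in choosing the genes. The comparison asked whether mature leaves of hydroponic plants differed from wild leaves of stage M, in a fit over 18 leaf libraries with edgeR's quasi-likelihood test and Benjamini-Hochberg adjustment over 17129 genes. Growth in the field or in hydroponics cannot be told apart from sequencing depth, since the stage M libraries held 2644973 to 4054878 counts and each mature leaf library at least 17130939. The p-values measure the spread between these samples, and that spread came mostly from wild leaf replicates. The mature leaves had no replicates within a phosphate level, and a phosphate slope was fitted through them. How far mature leaves of the same phosphate level differ from each other was therefore not measured.

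Of the 7 genes tested, 3 were higher in hydroponic mature leaf (25.7% of all genes tested) and 0 were lower (20.3%). The count of tested genes whose unadjusted p was under 0.05 was 4. The median log2 fold change of all genes tested was 0.17. With the replicate number of the wild leaves as a block, 4 were higher and 2 lower. The shares above are those of the fit without the block. The shares of all genes in the blocked fit are not given, so nothing is read from its counts.

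TRINITY_DN2360_c0_g2, of rank 10, had the largest of these differences. It stood at 8.87, 14.0 and 56.7 CPM in mature leaves at 1, 10 and 50 uM phosphate. It stood at 1.12, 0.672 and 1.299 CPM in the stage M replicates 1, 2 and 3, values that rest on 2, 1 and 2 estimated counts and make the size of the fold imprecise. Every mature leaf library lay above every one of the 15 wild leaf libraries, the highest of which had 3.44 CPM. The log2 fold change was 4.33 (SE 0.62; edgeR, adjusted p = 4.71e-05). Its white root values, 15.6, 12.9 and 17.2 CPM, lay within the range of the mature leaves. In an assembled gene that shares sequence with it, described below, mature leaves and stage M overlapped.

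TRINITY_DN1917_c0_g1, of rank 15, stood at 122, 149 and 219 CPM in mature leaves at 1, 10 and 50 uM phosphate. It stood at 63.5, 55.1 and 50.7 CPM in the stage M replicates 1, 2 and 3, and the groups did not overlap. The log2 fold change was 1.58 (SE 0.42; edgeR, adjusted p = 0.00647). With white root values of 11.2 to 14.97 CPM and cluster root values of 3.31 to 4.55 CPM, this gene was higher in every mature leaf library than in any root library.

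The third gene that passed was that of rank 16. It stood at 18.5, 25.5 and 28.4 CPM in mature leaves and at 8.99, 18.1 and 2.60 CPM at stage M, so that the groups stood apart by a small margin (log2 fold change 1.36, SE 0.38; edgeR, adjusted p = 0.00896). It did not pass in a fit of stage M and mature leaf alone (edgeR, adjusted p = 0.105). The gene of rank 18, TRINITY_DN12105_c1_g1, was at 0.490, 1.04 and 0.292 CPM in mature leaves and at 0, 5.38 and 7.15 CPM at stage M, and did not pass (log2 fold change -2.65, SE 1.07; edgeR, adjusted p = 0.0533). It passed with the replicate block (edgeR, adjusted p = 0.0303). The block also gave a pass to rank 12 (log2 fold change 1.77; edgeR, adjusted p = 0.0123) and rank 14 (log2 fold change -0.55; edgeR, adjusted p = 0.0275), whose adjusted p without the block were 0.119 and 0.190 in edgeR. Rank 8 did not pass in either fit (edgeR, adjusted p = 0.517 and, with the block, 0.446).

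**Figure D4:**
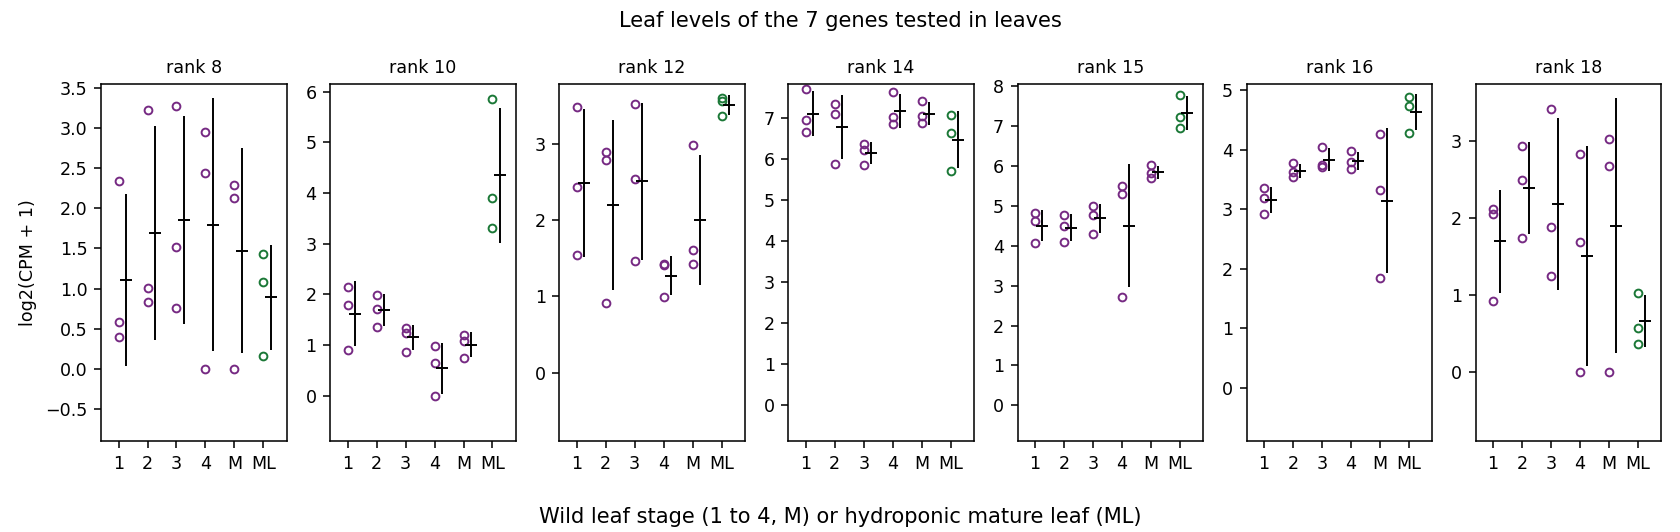
Levels of the 7 genes tested in leaves, as log2(CPM + 1), in the wild leaf stages (purple circles, 3 libraries each) and in hydroponic mature leaves (ML, green circles, 1 library at each phosphate level); black marks are the mean ± SD of a group. The mature leaf circles lie above all stage M circles in ranks 10, 12, 15 and 16.

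Over the phosphate levels of the mature leaves, 1 of the 7 genes rose (5.95% of all genes tested rose) and 0 fell (4.61% fell). TRINITY_DN2360_c0_g2 rose by a log2 change of 1.55 for each 10-fold increase in phosphate (SE 0.41; edgeR, adjusted p = 0.0262), from the mature leaf values given above. The call rested on single libraries: without the library at 1 uM the adjusted p was 0.120, and without that at 50 uM it was 0.986 and the slope 0.65 (edgeR). In white roots the same gene had a 50 to 1 uM ratio of 1.11. TRINITY_DN233_c0_g1 had a slope of -0.77 (SE 0.35) that did not pass without the block (edgeR, adjusted p = 0.178) and passed with it (edgeR, adjusted p = 0.0149). The spread in this test came mostly from wild leaf replicates, since the mature leaves had 1 library per level.

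Over the wild leaf stages, 0 of the 7 genes differed in edgeR's test of the 5 stages together, against 65.2% of all genes tested. The rule limited the span of the stage means, so nothing is read from that contrast. The unadjusted p was under 0.05 in 3 of the 7 genes, and ranks 14 and 15 passed with the replicate block (edgeR, adjusted p = 0.00113 and 0.0186) and with DESeq2 (adjusted p = 0.0390 and 0.0200). The spans of the stage means ran from 0 to 1.39 in the 18 genes.

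Wild leaf libraries with the same replicate number deviated together in some of these genes. For TRINITY_DN233_c0_g1 the library numbered 1 was the highest at all 5 stages, with 211, 163, 81.6, 200 and 170 CPM at stages 1, 2, 3, 4 and M. The library numbered 3 was the lowest at all 5 stages, with 101, 58.4, 56.7, 115 and 116 CPM. In that gene the difference between replicate numbers was of the same order as that between stages. Among all genes tested, 7.75% had the same number highest at all 5 stages, and of the 7 genes 1 did. Over the 15 wild leaf libraries, 7 genes with a mean of at least 1 CPM had pairwise Pearson correlations from -0.50 to 0.61 with a median of -0.0047, a description over libraries that share plants and stages.

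Of the 18 genes, 10 had 1 isoform and 8 had several, up to 4, a share near the 46.7% of all genes that had several. Of the 8, the most abundant isoform was the same in white and cluster roots in 4. Of the 5 among the 8 with more than 3 leaf counts, the most abundant isoform was the same in white root and leaf in 1 and tied in leaf in another, that of rank 9, on 4 leaf counts. An isoform that reached the gap by itself was found in 6 of the 8.

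Trinity components group assembled genes that share sequence, and reads of such genes can be split between them. No 2 of the 18 genes shared a component, 13 were alone in theirs (81.0% of all genes were), and 5 had 1 further gene beside them. For ranks 3 and 5 the neighbour also stood higher in white roots, at 7.95 and 20.4 CPM against 0.195 and 0.790 CPM in cluster roots (means), and the gap of the summed component was 3.34 and 1.98. For ranks 10, 11 and 14 (TRINITY_DN2360_c0_g2, TRINITY_DN1280_c0_g1 and TRINITY_DN233_c0_g1) the gap of the summed component was -0.17, 0.54 and 0.51. The difference between root types in ranks 11 and 14 thus held at the level of the gene but fell short of the rule when the neighbour was added. In rank 10 the root ranges overlapped once the neighbour was added, and the neighbour alone had a gap of -1.21. The neighbour of rank 10 stood at 22.1, 42.5 and 154 CPM in mature leaves at 1, 10 and 50 uM phosphate, higher at each step as in rank 10 itself. The neighbour of rank 11 had means of 137 CPM in white roots and 117 CPM in cluster roots. It stood at 56.5 to 132 CPM in the leaf libraries, where rank 11 had no count. The neighbour of rank 14 stood at 48.7, 73.8 and 91.1 CPM in white roots and at 162, 159 and 95.4 CPM in mature leaves over the same levels, also ordered as in rank 14.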

How the data were processed

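RNA was measured by stranded total RNA sequencing after removal of ribosomal RNA, per the labels' protocols. The authors deposited estimated counts for 51697 Trinity transcripts in 26 libraries, with kallisto, Trim Galore 0.6.6 and DESeq2 1.30.1 listed, without role or order, per the submitters' processing notes. How the assembly was made is not given in the sources used here. Estimated counts of transcripts were summed to 25047 genes by their IDs, scaled with TMM in edgeR 4.0.16 (R 4.3.3) to CPM, and put through the rule given above on log2(CPM + 1). The members and lists were chosen with earlier results of these data known. The list could hold up to 150 genes, and that limit was not reached.

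Leaf tests used the counts, rounded to whole numbers, in 1 edgeR quasi-likelihood fit (limma 3.58.1) of 18 leaf libraries with 6 groups and log10 phosphate in mature leaves, which left 11 residual degrees of freedom. Genes needed a count of 10 in as many libraries as edgeR's default filter asks and a total of 15, and an adjusted p of 0.05 was the threshold. The fit was run on simulated counts drawn independently for each library, so it was not tested with deviations shared by replicate number. Genes named by ID were the 2 with the largest gap, those on either side of the limit of the list, the one with the highest mean log2(CPM + 1) in wild leaf and, per tested comparison, up to 2 in each direction with the largest fold change among those that passed, averaged 2 or more in log2 CPM and showed no overlap between groups (or, for phosphate, an ordered course). TRINITY_DN1280_c0_g1 was added after its values were seen. Wild leaf libraries with the same replicate number deviated together: residual correlations were 0.156 to 0.583 in 30 same-number pairs and -0.421 to -0.0339 in 60 other pairs, and the strongest correlation was with the same number for 15 of 15. The main fit had no term for these numbers, so its counts and p-values do not account for this pairing. An alternative fit with the numbers as a block is given where it changes a call. DESeq2 1.42.0 was an alternative test. The 3 mature leaf libraries carry 1 phosphate level each, so their replicates are levels.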

Additional observations from a re-analysis of the deposited data

Results flagged for a closer look

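In cluster roots, TRINITY_DN10282_c0_g1 stood at 1.02 CPM on day 4, apart from the other 4 libraries at 0 to 0.148 CPM. The cluster root values of 8 genes, not of the whole list, were screened for a library far from the rest, and 1 had such a library. Chance gives about 1 in 20 in groups not chosen by their values, a rate that does not hold here because the rule used the cluster root values. The day 4 value rests on 13 estimated counts, and it is not shown to be singular among the genes of the list. The gene of rank 3 stood at 0.641 CPM on day 7, against 0.0624 to 0.157 CPM on the other days. The gene of rank 5 stood at 1.04 CPM on day 1, against 0 to 0.236 CPM on the other days. These values rest on 8 and 14 estimated counts.

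In TRINITY_DN233_c0_g1 the ratio of the level at 50 uM phosphate to that at 1 uM was 1.94 in white roots, with a higher value at each step, and 0.383 in mature leaves, with a lower value at each step. It was the 1 gene with opposite orders among 5 genes that reached 1 CPM in each of these 6 libraries. The difference was not tested, as there was 1 library per tissue and level.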

How the results depend on the processing

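Leaving out 1 root library gave 19 to 62 genes by the rule in place of 18 (62 without white root at 1 uM phosphate, 30 without white root at 10 uM, 31 without cluster root day 12); leaving out a library relaxes the rule, so the 18 remained by construction. A pseudocount of 0.5 gave 13 genes and 1 of 2 gave 22, and sums per Trinity component, chosen after seeing the data, gave 17, of which 14 were shared. Against stage M, genes of the 18 called lower, 0 as reported, numbered 1 with median-of-ratios size factors, 1 with the stricter filter, 1 with DESeq2, 2 with the replicate block and 0 to 1 without single leaf libraries; those called higher numbered 2 to 4 over 27 alternatives (2 in the fit of stage M and mature leaf alone, without rank 16). TRINITY_DN2360_c0_g2 (log2 fold change 3.48 to 4.82, edgeR or DESeq2 adjusted p at most 0.00781) and TRINITY_DN1917_c0_g1 (1.33 to 1.77, at most 0.0372) passed in all 27. Genes of the whole table called there, 7887 as reported, numbered 5116 in a fit of stage M and mature leaf alone, which has fewer samples. For the phosphate slope, genes of the 18 that rose, 1 as reported, numbered 0 with the most abundant isoform in place of the gene and 0 to 1 without single libraries, and those that fell, 0 as reported, numbered 1 with the replicate block. Genes of the whole table called for phosphate, 1808 as reported, numbered 3175 with DESeq2, 2857 with the replicate block and 43 to 2551 without single libraries (43 without the mature leaf at 50 uM, 626 without that at 1 uM). Over the wild leaf stages, genes of the 18 called, 0 as reported, numbered 2 with DESeq2, 2 with the replicate block and 0 to 2 without single libraries. The block changed no call beyond those given here and in the results. White root genes at least 2-fold higher at 50 than at 1 uM, 6 as reported, numbered 4 to 5 under scalings chosen after seeing the data, and those lowest at 1 uM, 12 as reported, numbered 9 to 12. The causes of these differences were not tested. Depth limits the leaf tests most at stage 4, with 1517487 to 3004237 counts, and 11 of the 18 genes had too few leaf counts to be tested.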
